A study of Homo sapiens with 6 samples.

Results

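Antisense noncoding RNA genes were followed in HT-29 cells, an established human colon adenocarcinoma line, after treatment with 5-aza-2′-deoxycytidine (5-Aza), a cytidine analog that traps DNA methyltransferases. They were chosen by their names, as the probe sets whose only annotated symbol ended in -AS and a digit, and no measured value entered that choice. This gave 1083 of the 54675 probe sets in the table, for 781 of the 19775 genes that had a probe set with a single symbol, while 22 probe sets that carried such a symbol among several were left out. Treatment was with 10 µM 5-Aza over 72 hours in medium without serum, and control cells had received the water and acetate solvent. Total RNA of 5-Aza cells was hybridized to 3 HG-U133 Plus 2.0 arrays and that of control cells to another 3. The sources do not call the replicate arrays independent cultures, and all p-values reflect the array-to-array spread alone. Both groups came from 1 cell line and 1 dose and time. Of 10 colon epithelial markers, 8 were above background on all 6 arrays (the exceptions were CDX1 and CDX2), against 0 of 2 measured leukocyte markers, 1 of 5 fibroblast markers and 1 of 3 endothelial markers.

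A natural antisense RNA is transcribed from the strand opposite to another gene, often starting near or within it, and is usually spliced and polyadenylated but encodes no protein. Some antisense RNAs act on the gene they overlap, by recruiting chromatin modifiers, by transcription across its promoter or by pairing with its RNA, and others work away from their own locus as scaffolds or as decoys for microRNAs. Many antisense RNAs share a CpG-rich promoter region with the protein-coding gene beside them, and methylation of such a region is known to silence both directions of transcription. Gene symbols came from the platform annotation, and the strand that each probe set reads was not examined. The name of the neighbouring gene stands before -AS, and this gene is called the sense gene below. For 715 of the 781 antisense genes a sense gene was measured, with 1906 probe sets for 691 sense genes. In the RefSeq gene table the spans of both genes overlapped in 628 of 710 pairs, and 469 of the 470 pairs with known starts lay on opposite strands.

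Promoter sequences from RefSeq (GRCh38.p14), running from 250 bases before to 50 bases after the start of transcription, were matched to 586 of the 781 antisense genes. Of these, 71 had several starts, of which the most upstream one was used. The sequence searched was the dinucleotide CG, the site of DNA methylation, which reads the same on both strands. At least 1 CG was found in 95.9% of all 27305 promoters and in 98.0% of the antisense promoters. Promoters of 5 genes are shown as examples with few and with many CG, with CG in capitals, and each of these genes has a single start in the table. They are not the extremes, since among the genes described below KRT10-AS1, which has several starts, held 54 CG and NAPA-AS1 held 36. SLC25A48-AS1 and CLIP1-AS1 had higher signals after 5-Aza and held 3 and 2 CG. PSMB8-AS1 also had higher signals and held 22 CG, TNS2-AS1 had lower signals and held 20 CG, and OIP5-AS1, among the strongest signals of the set, held 23 CG. Their windows were chr5:135653886-135654185 (minus strand), chr12:122395292-122395591 (plus), chr6:32843836-32844135 (plus), chr12:53054389-53054688 (minus) and chr15:41283740-41284039 (plus), in the order named.
SLC25A48-AS1: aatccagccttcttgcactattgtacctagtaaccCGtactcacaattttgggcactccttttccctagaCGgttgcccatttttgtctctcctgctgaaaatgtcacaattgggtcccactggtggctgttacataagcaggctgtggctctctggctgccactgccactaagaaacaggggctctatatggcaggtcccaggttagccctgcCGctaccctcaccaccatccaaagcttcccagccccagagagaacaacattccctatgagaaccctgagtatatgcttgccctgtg
CLIP1-AS1: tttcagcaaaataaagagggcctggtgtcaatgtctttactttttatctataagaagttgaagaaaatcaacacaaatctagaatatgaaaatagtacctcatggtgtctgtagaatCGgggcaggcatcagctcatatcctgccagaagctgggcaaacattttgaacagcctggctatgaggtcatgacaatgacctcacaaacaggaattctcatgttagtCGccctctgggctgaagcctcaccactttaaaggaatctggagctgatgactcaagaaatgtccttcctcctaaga
PSMB8-AS1: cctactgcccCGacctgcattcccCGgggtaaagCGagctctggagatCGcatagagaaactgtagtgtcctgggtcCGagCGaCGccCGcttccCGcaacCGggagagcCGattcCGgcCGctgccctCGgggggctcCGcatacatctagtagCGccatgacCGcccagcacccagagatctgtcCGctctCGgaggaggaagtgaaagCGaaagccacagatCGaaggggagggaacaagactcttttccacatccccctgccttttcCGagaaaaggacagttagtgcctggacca
TNS2-AS1: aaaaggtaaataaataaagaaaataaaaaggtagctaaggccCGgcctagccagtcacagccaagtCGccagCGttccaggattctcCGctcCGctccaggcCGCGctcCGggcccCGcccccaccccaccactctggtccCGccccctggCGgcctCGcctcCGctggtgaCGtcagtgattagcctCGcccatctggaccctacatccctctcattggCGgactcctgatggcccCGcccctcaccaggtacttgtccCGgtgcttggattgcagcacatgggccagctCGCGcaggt
OIP5-AS1: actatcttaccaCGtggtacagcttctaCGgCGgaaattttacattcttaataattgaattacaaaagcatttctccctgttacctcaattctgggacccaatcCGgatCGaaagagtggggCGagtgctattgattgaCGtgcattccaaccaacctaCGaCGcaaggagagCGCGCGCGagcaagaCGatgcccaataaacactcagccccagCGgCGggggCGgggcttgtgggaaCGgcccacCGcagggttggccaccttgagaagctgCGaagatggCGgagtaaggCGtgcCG

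Most antisense probe sets were weak. As the background level of an array the highest signal of its TrpnX control probe sets was taken, which detect a bacterial transcript, and it was 31.8, 22.6 and 27.9 on the 5-Aza arrays and 23.8, 33.5 and 42.0 on the control arrays. Signals are linear intensities, scaled so that the trimmed mean of every array was 500. By this measure 329 of the 1083 antisense probe sets (30.4%) were above background on all 6 arrays and 210 (19.4%) on no array. All 3 5-Aza arrays but fewer control arrays detected 98 probe sets (9.05%), and all 3 control arrays but fewer 5-Aza arrays detected 34 (3.14%). At a common level of 42.0, the antisense probe sets above it numbered 483, 490 and 489 on the 5-Aza arrays, against 420, 465 and 457 on the control arrays. The groups did not overlap, with 45.0% ± 0.346 above that level in 5-Aza cells and 41.3% ± 2.19 in control cells (SD, n = 3 each, exact two-sided permutation p = 0.1, the smallest that 6 arrays allow). Among all probe sets the share was higher too, with 63.8%, 63.3% and 63.3% on the 5-Aza arrays, against 59.9%, 60.2% and 61.6% on the control arrays. After subtraction of that share the antisense difference no longer separated the groups, at -18.5 ± 0.635 percentage points in 5-Aza cells and -19.3 ± 1.9 in control cells (exact permutation p = 0.6).

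Detection went with the CG content of the promoter, a feature that the choice of genes did not use. The median number of CG was 22 (quartiles 11 and 32.75) in the 190 promoters of antisense genes above background on all 6 arrays, 9 in the 302 promoters of those detected on some arrays, and 8 (quartiles 2 and 23) in the 94 promoters of those detected on none. At least 10 CG were present in 78.9% of the first group and in 46.8% of the third, against 55.9% of all promoters. Sense genes had a median of 24 CG over 566 promoters. Among antisense genes with a probe set that passed an unadjusted p under 0.025, the median was 10 CG in the 21 promoters of those with higher signals and 15.5 CG in the 16 promoters of those with lower signals. A CG count describes these windows and says nothing of their methylation in HT-29 cells, which the arrays did not measure.

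**Figure D1:**
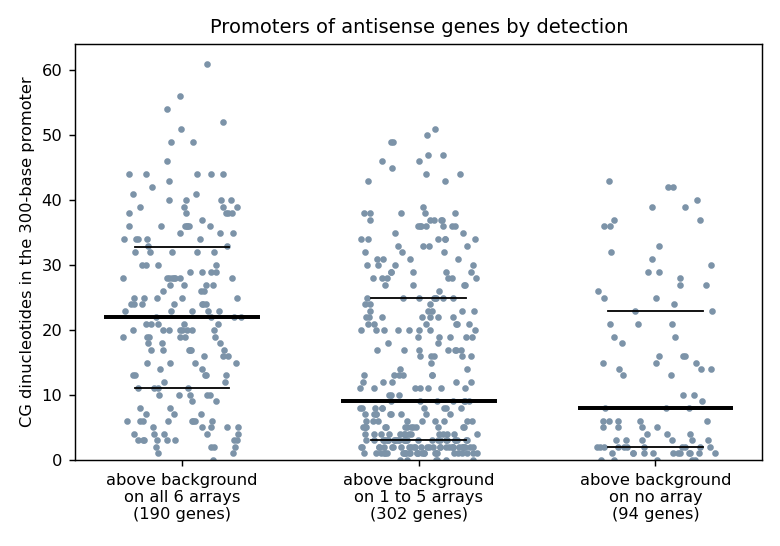
Number of CG dinucleotides in the promoter (300 bases, y axis) of each antisense gene, 1 point per gene, by whether its strongest probe set was above background on all, some or none of the 6 arrays; thick lines are medians and thin lines quartiles. The median was 22 for genes detected on all arrays, 9 for those detected on some and 8 for those detected on none.

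The comparison of 5-Aza-treated with control cells asked which antisense transcripts respond to the inhibitor. Changes are given as log2 fold changes of signal + 1, 5-Aza over control, with the standard error of limma, and the added 1 makes little difference above background. Near or under background the size of a change depends on this constant. With 16 added in place of 1, SH3PXD2A-AS1, described below, had 1.49 rather than 2.72, and RUNDC3A-AS1 had -1.16 rather than -2.79. With limma and Benjamini-Hochberg adjustment over all 54614 probe sets tested, 0 antisense probe sets passed an adjusted p under 0.05 in either direction (0.0% of all probe sets passed in each direction), and the smallest adjusted p among them was 0.253. A SAM-type statistic and limma with a trend in the variance also gave 0 antisense calls after adjustment. At an unadjusted p under 0.025, the threshold that the study applied to these arrays, 34 antisense probe sets (3.14%) were higher and 19 (1.75%) lower in 5-Aza cells, beside 2.97% and 1.05% of all probe sets. At an unadjusted p under 0.05 there were 62 higher (5.72%) and 37 lower (3.42%), beside 5.26% and 1.97% of all probe sets. The 5-Aza and control arrays did not overlap for 81 antisense probe sets (7.48%) that were higher and 52 (4.8%) that were lower, beside 9.29% and 5.22% of all. At both thresholds the higher shares lay near those of the whole array, while the lower shares lay above them. The non-overlapping shares lay somewhat under those of the whole array. These differences were not tested. Below, "passed" means an unadjusted p under 0.025. As RNA of whole cultures was measured, a change in the number of cells that express a transcript and a change in its amount per cell cannot be told apart.

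The median log2 fold change of the antisense probe sets was 0.08 (quartiles -0.31 and 0.59), with 602 above 0, against 0.06 over all probe sets and 0.07 over the sense probe sets. The balance of directions depended on the scaling of the arrays. With quantile normalization 23 antisense probe sets were higher and 37 lower (1090 and 911 of all probe sets), and with each array centred on its median 23 were higher and 43 lower (926 and 1451 of all). The median of all probe sets was then -0.01 and -0.13, and that of the antisense probe sets -0.06 and -0.11.

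**Figure D2:**
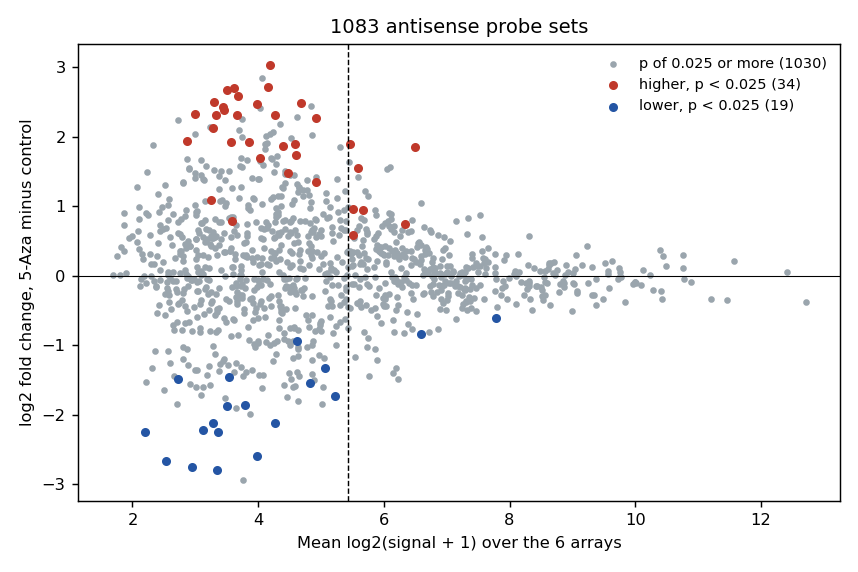
Log2 fold change of signal + 1 (5-Aza minus control, y axis) against mean log2(signal + 1) over the 6 arrays (x axis) for the 1083 antisense probe sets; the dashed line is the highest background level of an array, 42.0. Most of the 53 coloured probe sets that passed lie left of the line, and the spread of fold changes narrows to the right.

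The probe sets that passed were mostly weak ones. Of the 645 antisense probe sets with a mean signal at or under 42.0, 27 (4.19%) were higher and 16 (2.48%) lower, against 3.89% and 1.84% of all probe sets that weak. Of the 438 above that level, 7 (1.6%) were higher and 3 (0.685%) lower, against 2.37% and 0.542%. Of the 34 higher probe sets 13 were above background on all 3 5-Aza arrays, and 27 were above it on no control array. Of the 19 lower ones 3 were above background on all 3 control arrays, and 14 on no 5-Aza array. The 53 probe sets stood for 52 genes, of which 19 had several probe sets, and in 10 of these all probe sets moved in 1 direction. Over all 215 antisense genes with several probe sets, 89 had them all of 1 sign.

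The antisense probe sets with the largest increases among those detected on every 5-Aza array were near or under background in control cells. SH3PXD2A-AS1, antisense to the gene of a podosome scaffold protein, had signals of 41.5, 28.6 and 75.6 in 5-Aza cells and 6.4, 5.2 and 6.3 in control cells. Its log2 fold change was 2.72 ± 0.375 (SE, unadjusted p = 0.000565, limma adjusted p = 0.253), the smallest adjusted p of the set. No 5-Aza value overlapped a control value, but all control values were under background, and against background the increase was at least 1.38-fold. This bound, given for genes that no control array detected, sets the mean of the 5-Aza arrays against the background level of the control arrays. It does not hold array by array, since the 28.6 of 5-Aza replicate 2 lay under the background of control replicates 2 and 3 (33.5 and 42.0). The antisense probe sets of this group were named for passing with every 5-Aza array above background. Their separation and a bound above 1 follow largely from that choice and are no separate evidence.

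SLC25A48-AS1, beside a gene of the mitochondrial carrier family, had signals of 51.6, 72.6 and 56.6 in 5-Aza cells, against 12.7, 19.8 and 3.5 in control cells, with a log2 fold change of 2.48 ± 0.596 (at least 1.82-fold, limma adjusted p = 0.502). ST8SIA6-AS1, beside a sialyltransferase gene, had 87.9, 64.4 and 49.8 in 5-Aza cells, against 16.5, 22.0 and 5.6 in control cells, with a log2 fold change of 2.27 ± 0.529 (at least 2.0-fold, limma adjusted p = 0.49). In both, the lowest 5-Aza array lay above background and the highest control array under it. PRKCA-AS1, antisense to the gene of protein kinase C alpha, had 51.0, 38.6 and 47.3 in 5-Aza cells, against 13.4, 15.8 and 7.0 in control cells (log2 fold change 1.89 ± 0.325, at least 1.39-fold). The other PRKCA-AS1 probe set, above background on no array, lay the other way and did not pass (-1.008 ± 0.951, unadjusted p = 0.334). SCFD2-AS1 had 37.9, 48.6 and 33.0 in 5-Aza cells, against 7.2, 10.2 and 13.7 in control cells (log2 fold change 1.87 ± 0.282, at least 1.21-fold). SCFD2-AS1 was the 1 antisense gene with more than 1 probe set that passed, and its other such probe set had a log2 fold change of 1.74 ± 0.372, while a further pair of its probe sets gave 0.01 and 0.32. SLC7A14-AS1 had 45.1, 42.1 and 56.4 in 5-Aza cells, against 9.2, 26.3 and 23.7 in control cells (log2 fold change 1.35 ± 0.424, at least 1.46-fold), on a probe set of the _x_at kind, whose probes can bind other transcripts.

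A further group was detected on at least 1 control array, and its groups did not overlap either. ADAMTS9-AS2, beside the gene of a secreted metalloprotease and described as lowered in several cancers, had signals of 86.4, 104.7 and 65.8 in 5-Aza cells, against 40.3, 11.0 and 23.2 in control cells, with a log2 fold change of 1.90 ± 0.492 (limma adjusted p = 0.54). Its other 4 probe sets did not follow, with log2 fold changes of -0.30, -0.03, 0.01 and -0.93, and all 4 were under background on at least 4 of the 6 arrays. FUT8-AS1, at the locus of the enzyme that adds core fucose to N-glycans, had 182.0, 227.3 and 120.3 in 5-Aza cells, against 39.4, 69.4 and 36.2 in control cells on an _x_at probe set (log2 fold change 1.86 ± 0.363, limma adjusted p = 0.38). The other FUT8-AS1 probe set gave 54.2, 43.2 and 50.0 in 5-Aza cells and 53.8, 22.2 and 49.3 in control cells (0.32 ± 0.372, unadjusted p = 0.427), so both probe sets of this gene differed in their change. CD81-AS1, antisense to a tetraspanin gene, had 55.2, 123.3 and 79.3 in 5-Aza cells, against 21.5, 36.2 and 26.0 in control cells (1.55 ± 0.363, limma adjusted p = 0.492).

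SORCS3-AS1, beside a gene of the sortilin receptor family, had 60.4, 64.0 and 64.3 in 5-Aza cells, against 25.2, 27.2 and 46.9 in control cells (log2 fold change 0.96 ± 0.27). RARB-AS1 lies at the gene of retinoic acid receptor beta, which is often methylated in carcinomas, and had 80.8, 60.1 and 69.0 in 5-Aza cells, against 38.6, 48.9 and 24.0 in control cells (0.94 ± 0.302, unadjusted p = 0.024). PSMB8-AS1, whose start lies 39 bases from that of the immunoproteasome gene PSMB8, had 126.1, 104.8 and 84.4 in 5-Aza cells, against 55.0, 73.9 and 57.1 in control cells (0.75 ± 0.223, unadjusted p = 0.0184). It was the 1 higher probe set with a signal above background on all 6 arrays. Its other probe set, at 55.4, 52.4 and 54.6 in 5-Aza cells and 45.5, 8.6 and 72.8 in control cells, did not separate the groups. ST7-AS1 had 47.6, 56.2 and 62.1 in 5-Aza cells, against 41.7, 31.5 and 36.1 in control cells (0.59 ± 0.187, unadjusted p = 0.023). RARB-AS1, PSMB8-AS1 and ST7-AS1 no longer passed after quantile normalization (unadjusted p = 0.068, 0.0553 and 0.103) or median centring, and SLC7A14-AS1 did not either (unadjusted p = 0.0335 and 0.0378). SORCS3-AS1 did not pass after median centring (unadjusted p = 0.0262).

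Of the lower antisense probe sets, 3 were detected on every control array. CBLL1-AS1, whose start lies 4 bases from that of CBLL1, the gene of an E3 ubiquitin ligase, had signals of 151.0, 184.6 and 201.8 in 5-Aza cells, against 246.2, 257.4 and 316.6 in control cells, with a log2 fold change of -0.61 ± 0.192 (unadjusted p = 0.0225, limma adjusted p = 0.609). TNS2-AS1, beside the gene of the focal adhesion protein tensin 2, had 54.3, 78.3 and 83.9 in 5-Aza cells, against 155.5, 102.7 and 132.0 in control cells (-0.85 ± 0.257, unadjusted p = 0.0195). Both were above background on all 6 arrays, and in both every 5-Aza array lay under every control array. NAPA-AS1, beside a gene of the vesicle fusion machinery, had 9.1, 33.5 and 12.1 in 5-Aza cells, against 52.1, 45.8 and 44.4 in control cells (-1.54 ± 0.486). Another NAPA-AS1 probe set, detected on all 6 arrays, gave 49.2, 135.0 and 78.4 in 5-Aza cells and 39.3, 92.2 and 79.0 in control cells (0.28 ± 0.498), which overlapped. The largest decrease among the probe sets that passed, in RUNDC3A-AS1, was 4.3, 1.7 and 3.0 in 5-Aza cells, against 18.9, 43.8 and 20.3 in control cells (-2.79 ± 0.425, unadjusted p = 0.000924), but 1 of the 6 arrays detected it.

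**Figure D3:**
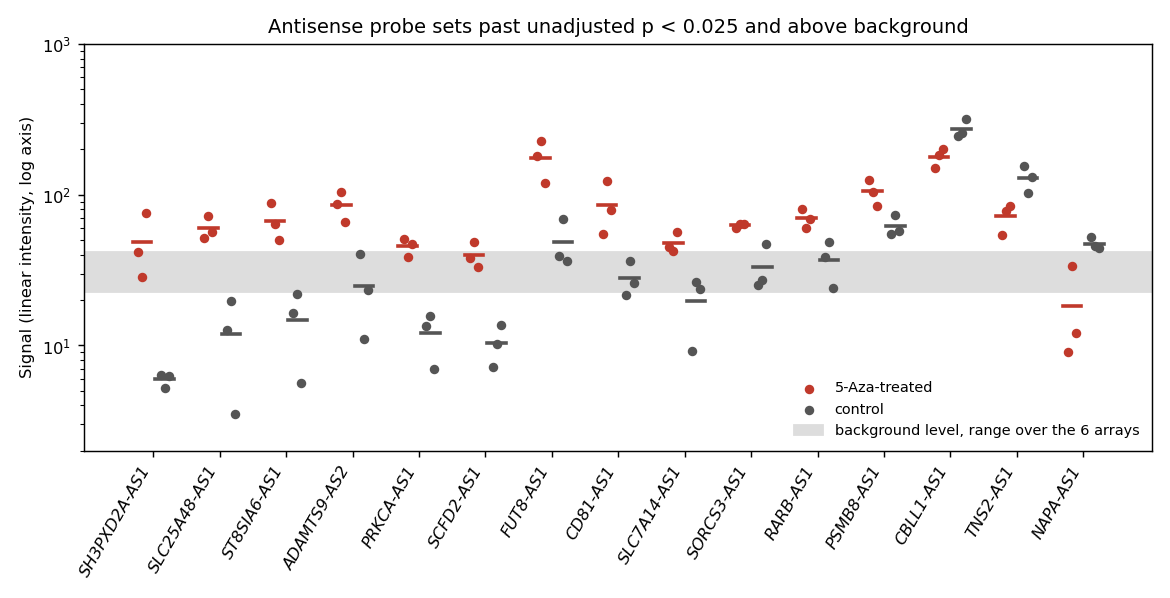
Signal (linear intensity, log axis) of 15 of the 16 antisense probe sets that passed an unadjusted p under 0.025 and were above background on every array of the higher group (ST7-AS1, the smallest of the 13 increases, is not drawn), in the 3 5-Aza arrays (red, left) and the 3 control arrays (grey, right); points are arrays, bars arithmetic means, and the band is the range of the background level over the 6 arrays. The 12 probe sets to the left are higher in 5-Aza cells and the 3 to the right lower, and no 5-Aza point overlaps the control points of the same probe set.

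Each array was also left out in turn. Of the 19 named antisense probe sets that passed, none turned in direction, and 7 passed without any single array, namely SH3PXD2A-AS1, ST8SIA6-AS1, PRKCA-AS1, SCFD2-AS1, FUT8-AS1, CLIP1-AS1 and RUNDC3A-AS1. SLC25A48-AS1 no longer passed without 5-Aza replicate 2 and CD81-AS1 without control replicate 1, with log2 fold changes between 1.85 and 2.95 and between 1.25 and 1.82. ADAMTS9-AS2 was lost without 5-Aza replicate 1, 5-Aza replicate 2 or control replicate 3 (1.43 to 2.32), and GRID1-AS1 without 5-Aza replicates 1 or 2 or control replicates 2 or 3 (1.99 to 2.94). The remaining 8 were each lost on leaving out 4 or more of the 6 arrays. Among them CBLL1-AS1 was lost without any array (-0.70 to -0.49), NAPA-AS1 in all but 1 case (-2.07 to -1.19) and TNS2-AS1 likewise (-1.00 to -0.66), while PSMB8-AS1 ran between 0.61 and 0.89, RARB-AS1 between 0.67 and 1.16, SORCS3-AS1 between 0.80 and 1.23, SLC7A14-AS1 between 0.90 and 1.61 and ST7-AS1 between 0.49 and 0.69.

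The antisense probe sets with the strongest signals had small differences. Named by their mean over the 6 arrays, they belong to EPB41L4A-AS1, OIP5-AS1, FGD5-AS1, AFAP1-AS1, KRT10-AS1, PAX8-AS1, TMEM132D-AS1 and THAP9-AS1, and 0 of these 8 passed at an unadjusted p under 0.025. Their log2 fold changes lay between -0.37 and 0.22. AFAP1-AS1, described as raised in several carcinomas, had 2495.0, 2533.8 and 2419.9 in 5-Aza cells, against 2811.3, 3433.8 and 3287.5 in control cells (-0.35 ± 0.15, unadjusted p = 0.0627). KRT10-AS1 had 2046.5, 2271.9 and 2012.1 in 5-Aza cells, against 2548.9, 2479.1 and 2923.5 in control cells (-0.33 ± 0.151, unadjusted p = 0.0783). FGD5-AS1 had 3262.3, 3476.8 and 3127.2 in 5-Aza cells, against 2758.6, 2670.7 and 3058.2 in control cells (0.22 ± 0.143, unadjusted p = 0.184). On these probe sets of the 3 genes the groups did not overlap, although none of them passed. Other probe sets of AFAP1-AS1 and FGD5-AS1 gave 0.185 ± 0.282 and 1.721 ± 0.567, with overlapping groups, and did not pass. OIP5-AS1, a conserved RNA known as a sponge for microRNAs and for the RNA-binding protein HuR, had 6649.4, 5428.8 and 4840.4 in 5-Aza cells and 5769.9, 4107.5 and 6516.2 in control cells (0.06 ± 0.244, 95% interval -0.55 to 0.67). Its other probe sets gave -0.09 and 0.28. EPB41L4A-AS1, the host transcript of a small nucleolar RNA, had 5208.0, 6833.2 and 5805.3 in 5-Aza cells and 8303.6, 6759.9 and 7958.6 in control cells (-0.37 ± 0.179), with 1 overlap between the groups. Another EPB41L4A-AS1 probe set, above background on all 6 arrays, gave 0.198 ± 0.429.

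Lists of antisense genes by locus or by described role were counted with the strongest probe set of each gene. Their counts, in this paragraph and the next, are to be read against the 2.97% higher and 1.05% lower of all probe sets. Of 33 measured antisense genes at loci of developmental and lineage transcription factors, 1 was higher and 0 lower, with a median log2 fold change of -0.03 against 0.06 over all probe sets, and 17 were above background on every array of a group. FOXD3-AS1 was the higher one (2.47 ± 0.483), with 1 of its 5-Aza arrays under background. Counting all 56 probe sets of these genes, 1 was higher and 1 lower, the lower one for ZFHX4-AS1 (-2.11, named after its values were seen). The HOX cluster RNAs HOXA-AS2, HOXA-AS3, HOXB-AS1, HOXB-AS3 and HOXD-AS2 were detected and had log2 fold changes of 0.13, -0.56, 0.30, -0.28 and 0.04. Another HOXA-AS2 probe set was lower without overlap and above background on every array, but did not pass (-1.397 ± 0.457, unadjusted p = 0.0257). It had 40.4, 24.7 and 77.4 in 5-Aza cells, against 117.3, 143.8 and 88.0 in control cells. A further HOXA-AS2 probe set gave -0.321, and another of HOXB-AS1 gave -0.274. The other HOXB-AS3 probe sets gave 0.057, 0.098, -0.129 and 1.225, the last with overlapping groups. GATA6-AS1, at the gene of an endoderm transcription factor, had 571.4, 595.6 and 761.8 in 5-Aza cells and 647.5, 815.5 and 974.0 in control cells (-0.33 ± 0.225, unadjusted p = 0.199). ZEB1-AS1, at the gene of a repressor of epithelial genes, had 183.1, 193.8 and 225.4 in 5-Aza cells and 254.4, 233.6 and 214.9 in control cells (-0.22 ± 0.161, unadjusted p = 0.22). The groups overlapped for both.

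Of 25 measured antisense genes with roles described in the literature, 2 were higher (ADAMTS9-AS2 and ST7-AS1) and 1 lower (RUNDC3A-AS1), with a median of 0.06. RUNDC3A-AS1 and FUT8-AS1 had been named in earlier results of these data, so their passing is no separate evidence here. Counting all 54 probe sets of these 25 genes, 4 were higher, FUT8-AS1 among them, and 3 lower. Among those whose strongest probe set did not pass, PCBP1-AS1 had 621.1, 547.0 and 601.7 in 5-Aza cells and 607.4, 628.3 and 663.3 in control cells (-0.10 ± 0.14). Another PCBP1-AS1 probe set passed as lower (-2.595 ± 0.58, unadjusted p = 0.00552). It had 13.1, 3.2 and 3.5 in 5-Aza cells, against 39.0, 24.8 and 56.0 in control cells, and was above background on 2 control arrays and 0 5-Aza arrays. MCM3AP-AS1 had 381.1, 435.9 and 310.0 in 5-Aza cells and 384.1, 393.9 and 358.3 in control cells (-0.03 ± 0.181). MBNL1-AS1, at the locus of a splicing regulator, had 347.7, 377.8 and 314.5 in 5-Aza cells, against 436.6, 404.9 and 558.8 in control cells (-0.42 ± 0.188, unadjusted p = 0.0731), without overlap. Another MBNL1-AS1 probe set, above background on every array, gave -0.016 ± 0.292. Of 10 measured antisense genes on a list drawn up for immune loci, 1 was higher (PSMB8-AS1) and 0 lower, and the median log2 fold change was -0.06. The list also held B3GALT5-AS1 (-1.486) and SP2-AS1 (-0.175), whose sense genes are not immune genes. HLA-F-AS1, in the major histocompatibility complex, had 816.9, 737.0 and 754.6 in 5-Aza cells, all within the control range of 545.2, 1138.3 and 684.5. Of 27 measured antisense genes at zinc finger loci, 0 were higher and 0 lower, the median log2 fold change was -0.12 and 11 were above background. Their detected members ran between -0.46 (ZNF143-AS1) and 0.36 (ZNF433-AS1).

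For comparison with other noncoding RNA genes, 42 of 1088 LINC probe sets (3.86%) were higher and 17 (1.56%) lower, with a median log2 fold change of 0.21. Among 278 probe sets of divergent transcripts (-DT) 8 were higher (2.88%) and 5 lower (1.8%), and among 31 probe sets of intronic transcripts (-IT) 3 were higher (9.68%) and 0 lower, beside 2.97% and 1.05% of all probe sets. The difference between these classes was not tested. A signal above background on all arrays of a group was found for 42.6% of the antisense probe sets, 27.9% of the LINC probe sets and 53.6% of the -DT probe sets.

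The sense genes were then set beside their antisense genes. Of 1906 sense probe sets, 51 (2.68%) were higher and 18 (0.944%) lower, near the shares of all probe sets. With the strongest probe set standing for each gene, the antisense and the sense log2 fold change had the same sign in 366 of 715 pairs (51.2%). Both were above 0 in 224 pairs and below 0 in 142, while the antisense gene alone was above 0 in 167 and the sense gene alone in 182. Across pairs, Pearson's r was 0.054 and Spearman's rho 0.041, a description over 715 pairs measured on the same 6 arrays. In the 279 pairs with both genes above background the same sign was found in 141 (50.5%), with r of 0.093. Pairs were also counted by position. The same sign was found in 320 of 628 pairs with overlapping spans and in 43 of 82 with spans apart, and in 94 of 196 pairs (48.0%) on opposite strands whose starts lay within 1000 bases, against 142 of 273 (52.0%) with starts farther apart. Differences between these shares were not tested.

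**Figure D4:**
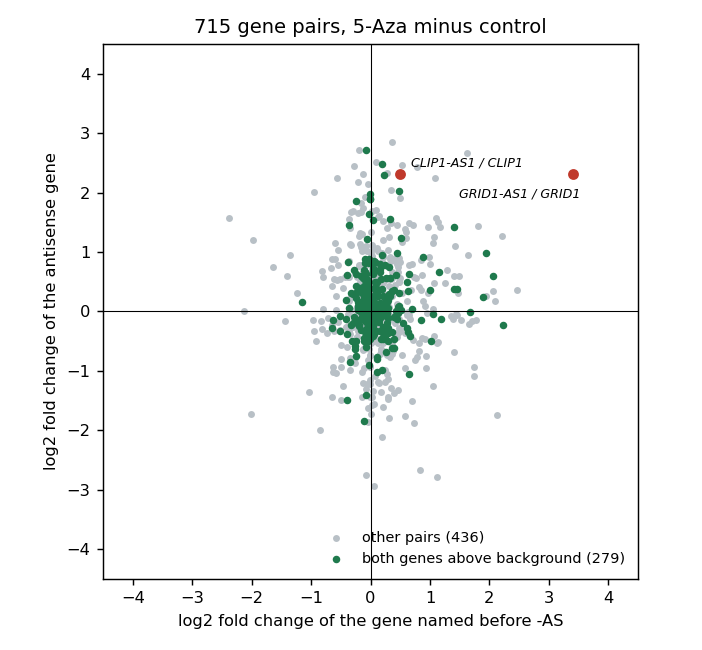
Log2 fold change of signal + 1 (5-Aza minus control) of the antisense gene (y axis) against that of the sense gene (x axis) for 715 pairs, green where both genes were above background on all 3 arrays of a group (279 pairs); the 2 pairs in which both genes passed are red. The points form a cloud about the origin, with 366 pairs of the same sign.

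Among the 715 pairs the antisense gene passed in 34, the sense gene in 19, and both in 2. Of all probe sets 2.97% passed as higher and 1.05% as lower. Whether 2 pairs are more than unlinked genes would give was not tested. CLIP1-AS1 had signals of 31.1, 60.1 and 40.1 in 5-Aza cells, against 10.8, 6.0 and 6.9 in control cells (log2 fold change 2.32 ± 0.331, limma adjusted p = 0.26), with 1 5-Aza array under background. CLIP1, the gene of a microtubule plus-end protein, had 1045.1, 1108.9 and 1251.5 in 5-Aza cells, against 818.9, 754.9 and 838.2 in control cells (0.49 ± 0.15, limma adjusted p = 0.603). Of 6 CLIP1 probe sets 5 were above 0 and 1 passed, and the starts of both genes lay 27127 bases apart. GRID1-AS1 had 28.6, 37.1 and 19.3 in 5-Aza cells, against 12.5, 2.6 and 2.8 in control cells (2.32 ± 0.598), with 1 array above background. GRID1, the gene of a delta-type glutamate receptor subunit, had 89.2, 121.1 and 66.5 in 5-Aza cells, against 15.4, 7.2 and 3.6 in control cells (3.41 ± 0.521, at least 2.72-fold, limma adjusted p = 0.28). Of 3 GRID1 probe sets 2 were above 0 and 1 passed. In both pairs the 2 genes were higher on every 5-Aza array than on every control array. Both pairs were named because their genes passed on these same arrays, so this is no separate evidence of a joint change.

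In the other named pairs with an antisense gene that passed, the strongest probe set of the sense gene did not pass. SH3PXD2A gave 698.2, 564.7 and 656.0 in 5-Aza cells and 653.0, 750.8 and 624.8 in control cells (log2 fold change -0.08 ± 0.165), and its difference from SH3PXD2A-AS1 was 2.80 (exact permutation p = 0.1, the smallest possible). As SH3PXD2A-AS1 was named for passing on these same arrays, this p-value is no separate evidence that the genes diverge. Another of the 3 SH3PXD2A probe sets did pass, at 105.7, 122.9 and 122.7 in 5-Aza cells, against 75.1, 53.0 and 82.1 in control cells (0.75 ± 0.217, unadjusted p = 0.0158). PRKCA gave 3986.8, 3794.7 and 4435.0 in 5-Aza cells and 3706.9, 4304.9 and 4229.3 in control cells (0.00 ± 0.152). CD81 gave 13803.0, 11998.7 and 15450.4 in 5-Aza cells and 11617.3, 15273.9 and 13294.6 in control cells (0.04 ± 0.185). SCFD2, SLC25A48, ADAMTS9 and NAPA had log2 fold changes of -0.13, 0.19, -0.01 and -0.02, and in all 4 the groups overlapped. Of the 4 ADAMTS9 probe sets, 1 that was under background on all arrays passed as lower (-0.98 ± 0.305, unadjusted p = 0.0218). RARB was higher on average than in control cells, at 4.6, 55.2 and 52.5 in 5-Aza cells and 2.0, 7.3 and 21.2 in control cells (1.64 ± 1.196, unadjusted p = 0.224), with all 5 of its probe sets above 0 and none past the threshold. PSMB8 gave 553.0, 575.3 and 558.0 in 5-Aza cells, against 513.5, 489.9 and 373.8 in control cells (0.30 ± 0.178, unadjusted p = 0.144), without overlap. SLC7A14 and TNS2 lay on the side of their antisense genes (1.056 ± 0.687 and -0.349 ± 0.246). RUNDC3A and FUT8 lay opposite to the antisense probe sets that passed (1.124 ± 1.314 and -0.227 ± 0.217). SORCS3, under background on all arrays, gave 0.006 ± 0.324. In SLC7A14, TNS2, RUNDC3A, FUT8 and SORCS3 the groups overlapped.

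CBLL1 lay on the other side from its antisense gene. It gave 726.9, 794.5 and 915.1 in 5-Aza cells, against 606.1, 545.3 and 694.1 in control cells (log2 fold change 0.40 ± 0.176, unadjusted p = 0.068), while CBLL1-AS1 was lower. Within each array the log2 ratio of CBLL1-AS1 to CBLL1 was lower in 5-Aza cells by a difference of -1.01 (exact permutation p = 0.1, the smallest possible). CBLL1-AS1 was named because it passed on these same arrays, so this p-value is no separate evidence that the genes diverge. The 2 CBLL1 probe sets were both above 0. KRT10, a keratin gene whose start lies 3429 bases from that of KRT10-AS1, also lay opposite, at 3685.8, 3907.1 and 3942.5 in 5-Aza cells, against 3416.6, 3011.6 and 3162.6 in control cells (0.27 ± 0.139). Of its 3 probe sets 2 were above 0, and the lowest was at -0.23. The difference of KRT10-AS1 from KRT10 was -0.60 (exact permutation p = 0.1). No probe set of either sense gene passed.

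In 17 pairs the sense gene passed and the antisense gene did not, and the sense gene was higher in 14 and lower in 3. Over all probe sets, too, more passed as higher (2.97%) than as lower (1.05%), so this balance is not particular to these pairs. The lower ones were CLSTN2 and RNASE11, which no array detected, and ANXA2R. ANXA2R, a gene named for a receptor of annexin A2, had 724.1, 702.6 and 763.4 in 5-Aza cells, against 1010.9, 1082.3 and 1016.2 in control cells (log2 fold change -0.51 ± 0.135, unadjusted p = 0.0116), while ANXA2R-AS1 had means of 452 in 5-Aza cells and 488 in control cells (-0.08 ± 0.252). In 6 of the 17 pairs, ANXA2R among them, the antisense gene was above background on all 6 arrays. ASB16, a gene of the ankyrin repeat and SOCS box family, had 64.7, 51.9 and 166.7 in 5-Aza cells, against 21.2, 24.0 and 9.2 in control cells (2.23 ± 0.577, at least 2.51-fold). ASB16-AS1, detected on all 6 arrays, had means of 502 in 5-Aza cells and 587 in control cells (-0.22 ± 0.18). CKMT2, the gene of a mitochondrial creatine kinase, had 75.8, 75.3 and 66.7 in 5-Aza cells, against 22.7, 43.6 and 43.5 in control cells (1.03 ± 0.296, unadjusted p = 0.016), while CKMT2-AS1 had means of 431 in 5-Aza cells and 607 in control cells (-0.50 ± 0.168, unadjusted p = 0.0285). CLDN10, a claudin gene, had 135.2, 107.4 and 164.3 in 5-Aza cells, against 15.6, 81.2 and 33.9 in control cells (1.89 ± 0.609), and CLDN10-AS1 had means of 98.9 in 5-Aza cells and 80.6 in control cells (0.25 ± 0.26). In the pairs of ASB16, CKMT2 and CLDN10 the sense gene was higher without overlap, and its antisense gene had not passed.

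In other such pairs the antisense probe set was at background. IGFBP7, a secreted growth inhibitor known as a target of methylation in colon cancer, had 76.8, 55.0 and 53.2 in 5-Aza cells, against 14.3, 18.2 and 18.9 in control cells (log2 fold change 1.78 ± 0.218, at least 1.86-fold, limma adjusted p = 0.214). IGFBP7-AS1 was above background on no array (means of 5.53 in 5-Aza cells and 5.03 in control cells). WWTR1, a coactivator of the Hippo pathway, had 121.0, 158.0 and 108.8 in 5-Aza cells, against 63.3, 60.3 and 26.2 in control cells (1.44 ± 0.395), and WWTR1-AS1 was above background on no array. TBX2 and JAZF1 were also higher (0.50 ± 0.151 and 0.99 ± 0.273) beside antisense probe sets under background on every array. For such pairs the arrays allow no statement on the antisense transcript beyond its being under background.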

How the data were processed

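RNA of 5-Aza-treated and of control HT-29 cells had been measured on 3 HG-U133 Plus 2.0 arrays each. The deposited table holds linear intensity values, which the authors made with the affy package (version and summary method not given in the sources used here). The trimmed mean of every array, without the lowest and highest 2%, was 500. After 61 control probe sets were removed, log2(intensity + 1) of 54614 probe sets was fitted with limma 3.58.1 (R 4.3.3), with group as the term and Benjamini-Hochberg adjustment over all probe sets. The script was tested on simulated data. The adjusted threshold was 0.05 and the unadjusted one 0.025. Single differences have a two-sided exact permutation test, whose smallest p is 0.1. The number of arrays limits the precision.

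Symbols came from the platform annotation. Whether each probe set reads the antisense strand was not examined, and transcripts of overlapping genes may be mixed where it does not. A gene was represented by its probe set with the highest mean signal, with _x_at sets used where it had no other. The members, lists and named genes were chosen with earlier results of these data known. Named were the passing probe sets above background on every array of the higher group (at most 12 higher and 8 lower), the 8 strongest, detected list members, pairs with both genes passing, FUT8-AS1, RUNDC3A-AS1, and the sense genes of all these. Sense genes that passed without their antisense gene were chosen after their values were seen. Alternatives were other tests, scalings, filters, constants, a replicate block and leaving out arrays.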

Additional observations from a re-analysis of the deposited data

How the results depend on the processing

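Under every alternative run, 0 antisense probe sets passed an adjusted p under 0.05, while over all probe sets limma with trend and robust variance gave 22 higher and 1 lower, and testing only probe sets above the median signal gave 9 higher and 0 lower. The antisense counts past the unadjusted threshold, 34 higher and 19 lower, were 32 and 14 with the replicate block, 38 and 18 with the SAM-type statistic, and 32 to 53 and 17 to 26 without single arrays (53 higher without control replicate 2). Quantile normalization gave 37 lower and median centring 43 lower, each with 23 higher. Among probe sets above the median signal, a smaller set by construction, there were 8 higher and 7 lower. For all probe sets, median centring gave 926 higher and 1451 lower, quantile normalization 911 lower, and the trend and robust variance 909 lower. For the sense probe sets, quantile normalization gave 29 higher, median centring 27 higher and 48 lower, the trend and robust variance 33 lower, and the filter 10 lower. Non-overlapping antisense probe sets numbered 53 higher and 91 lower after quantile normalization, 45 and 111 after centring, 15 and 16 with the filter, and 129 to 155 and 93 to 122 without single arrays, where fewer arrays must separate. The median of the antisense probe sets was -0.063 after quantile normalization, -0.111 after centring, -0.006 with the filter and 0.028 to 0.132 without single arrays, and that of all probe sets was -0.007 after quantile normalization and -0.125 after centring. Pairs of the same sign numbered 84 with the filter, which leaves fewer pairs, and 355 to 390 under the other scalings and choices of probe set. Apart from these constructions the cause was not tested.

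Replicate numbers 1 to 3 occur in both groups, but nothing in the sources pairs the arrays, and the deviations of same-numbered arrays had correlations of -0.012, 0.002 and 0.010, so the numbers were taken as names only. Among the antisense genes with values in the text, the log2 fold change turned in sign where it was small and had not passed. After median centring this held for HLA-F-AS1 (-0.155), HOXA-AS2 (-0.057), HOXD-AS2 (-0.143), OIP5-AS1 (-0.127) and THAP9-AS1 (-0.074), and after quantile normalization for HOXA-AS2 (-0.031) and HOXD-AS2 (-0.116). Without single arrays the values ran between -0.073 and 0.547 for the second probe set of FUT8-AS1, -0.199 and 0.331 for HLA-F-AS1, -0.121 and 0.348 for HOXA-AS2, -0.049 and 0.16 for HOXD-AS2, -0.139 and 0.107 for MCM3AP-AS1, -0.133 and 0.2 for OIP5-AS1, -0.165 and 0.053 for TMEM132D-AS1, and -0.766 and 0.024 for ZNF143-AS1. Of the 19 named probe sets that passed, 6 passed under all 12 alternatives that kept every probe set (SH3PXD2A-AS1, ST8SIA6-AS1, PRKCA-AS1, FUT8-AS1, CLIP1-AS1 and RUNDC3A-AS1), ST7-AS1 passed under 1 and RARB-AS1 under 2. The filters on the median signal and on _x_at probe sets, which remove probe sets, are not among these 12. With 3 arrays a group, signals near background leave standard errors of the order of many fold changes.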
